A study of Mus musculus with 12 samples.

Results

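The genes of the Wnt family in the deposited gene table were the ligands, the receptors and co-receptors that bind them, the R-spondins and their Lgr receptor, the secreted antagonists and the Axin scaffold proteins. They were taken by symbol, and 36 of the 13770 genes of the table matched. They comprised 10 Wnt ligands, 10 Frizzled receptors, 2 Lrp co-receptors, 3 R-spondins, 1 Lgr receptor, 8 antagonists and 2 Axin genes. A further 14 family names had no row in the table and were not analysed here, among them Wnt1, Wnt3a, Dkk1 and Lgr5. A missing row is not read as a lack of expression, since the table holds no genes of very low level. Messenger RNA had been sequenced from 12 whole brains of wild-type C57BL/6 mice (the substrain C57BL/6J) at embryonic day 18 (E18), 3 females and 3 males in each of 2 groups. Dams of the PAE (prenatal alcohol exposure) group drank 10% ethanol in 0.066% saccharin by their own choice in a limited daily session during mating and pregnancy, and dams of the SAC group drank 0.066% saccharin, which both groups therefore received. Each brain gave 1 library, named as the animal was: ES19-4, ES19-8, ES23-4, ES23-7, ES27-1 and ES27-4 (PAE), and SAC12-5, SAC12-6, SAC12-7, SAC26-5, SAC26-7 and SAC26-8 (SAC). What the prefixes of these names stand for, litters for instance, is not stated, so each brain was its own replicate and p-values cover the spread from brain to brain alone. Values are FPKM, fragments per length of transcript and per sequenced depth. Reads behind a value could not be recovered, so depth and counting error are unknown.

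Wnt proteins are secreted, lipid-bearing ligands. In the canonical pathway a Wnt bridges a Frizzled receptor and Lrp5 or Lrp6, the complex of Axin, Apc and Gsk3 stops degrading beta-catenin, and beta-catenin joins TCF/LEF factors on target genes, Axin2 among them. R-spondins bind Lgr receptors and keep Frizzled on the cell surface, whereas Sfrp proteins and Wif1 bind Wnts and some Dkk proteins bind Lrp co-receptors. In the embryonic brain these genes pattern the dorsal telencephalon and hippocampus and guide neurogenesis, axons and the growth of brain vessels.

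The sequences below belong to the genes that were lower in PAE brains. Promoters from 250 bases before to 50 bases after the gene start were matched in RefSeq (GRCm38.p6) for 22 of the 36 genes, and of the 5 genes that differed between PAE and SAC they were matched for Lgr4 and Dkkl1. Capitals mark CG dinucleotides. The Lgr4 window (chr2:109917397-109917696, plus strand) held 18 and the Dkkl1 window (chr7:45211834-45212133, minus strand) held 14, against a median of 7 over all 32851 promoters of that table and of 27 over the 24 promoters of the family. On the minus strand the gene table starts Dkkl1 at 45212147, and its transcript Dkkl1-201 starts at 45212123. The Dkkl1 window was set by another start in RefSeq and lay within the locus quantified here, not upstream of it.
Lgr4 promoter: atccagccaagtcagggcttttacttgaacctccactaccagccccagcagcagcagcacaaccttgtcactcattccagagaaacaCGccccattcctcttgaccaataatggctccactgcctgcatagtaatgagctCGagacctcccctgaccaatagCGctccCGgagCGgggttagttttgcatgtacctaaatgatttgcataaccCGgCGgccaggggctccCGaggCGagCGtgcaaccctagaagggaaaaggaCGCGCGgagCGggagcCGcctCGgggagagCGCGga
Dkkl1 promoter: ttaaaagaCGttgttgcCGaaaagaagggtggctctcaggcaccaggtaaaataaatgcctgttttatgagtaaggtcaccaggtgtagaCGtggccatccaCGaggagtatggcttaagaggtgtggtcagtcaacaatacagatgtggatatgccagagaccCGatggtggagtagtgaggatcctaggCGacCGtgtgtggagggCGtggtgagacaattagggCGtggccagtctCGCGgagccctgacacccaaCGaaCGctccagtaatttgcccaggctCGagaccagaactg
The TCF/LEF core motif was searched in these windows as CTTTGA or CTTTGT on both strands. Either motif occurred in 31.2% of all promoters and in those of 6 of the 22 family genes (Fzd1, which held both, and Wnt5b, Dkk2, Fzd7, Wnt3 and Wnt8b). The first share counts promoters and the second counts genes. Wnt5b had several windows, and only that at chr6:119449337-119449636 held a motif. Neither motif was found in the Lgr4, Dkkl1 or Axin2 window. The third sequence is the stretch by which the 2 quantified Lgr4 transcripts differ, shown because the shorter form was found mainly in 1 brain. Capitals mark the 72 bases of exon 2 of Lgr4-201 (chr2:109970692-109970763, plus strand, GRCm38, coding), which Lgr4-202 lacks, and 30 bases of the neighbouring exons stand on either side.
Lgr4 exon 2: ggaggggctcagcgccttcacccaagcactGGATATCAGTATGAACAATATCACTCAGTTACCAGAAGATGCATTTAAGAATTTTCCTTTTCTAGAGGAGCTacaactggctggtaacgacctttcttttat

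Every one of the 36 genes had a value above 0 in all 12 brains. Every gene of the deposited table had a mean well above 0 in some group of sex and treatment, so genes of lower level are not in it. Values above 0 therefore partly reflect which genes the table holds. The antagonist Sfrp1 had the highest mean, 19.5 FPKM, and the receptor Fzd5 the lowest, 0.455 FPKM. The members with the highest mean of each role were Wnt7b among the ligands (10.6 FPKM), Fzd3 among the Frizzled receptors (11.5), Lrp6 among the co-receptors (6.18), Rspo3 among the R-spondins (5.36) and Axin1 of the Axin pair (12.5). Levels spread widely within a role, since the ligands ran from 0.464 FPKM (Wnt6) to 10.6. Whole brain pools many regions, and in bulk samples fewer cells of a type and less RNA per cell cannot be told apart.

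**Figure D1:**
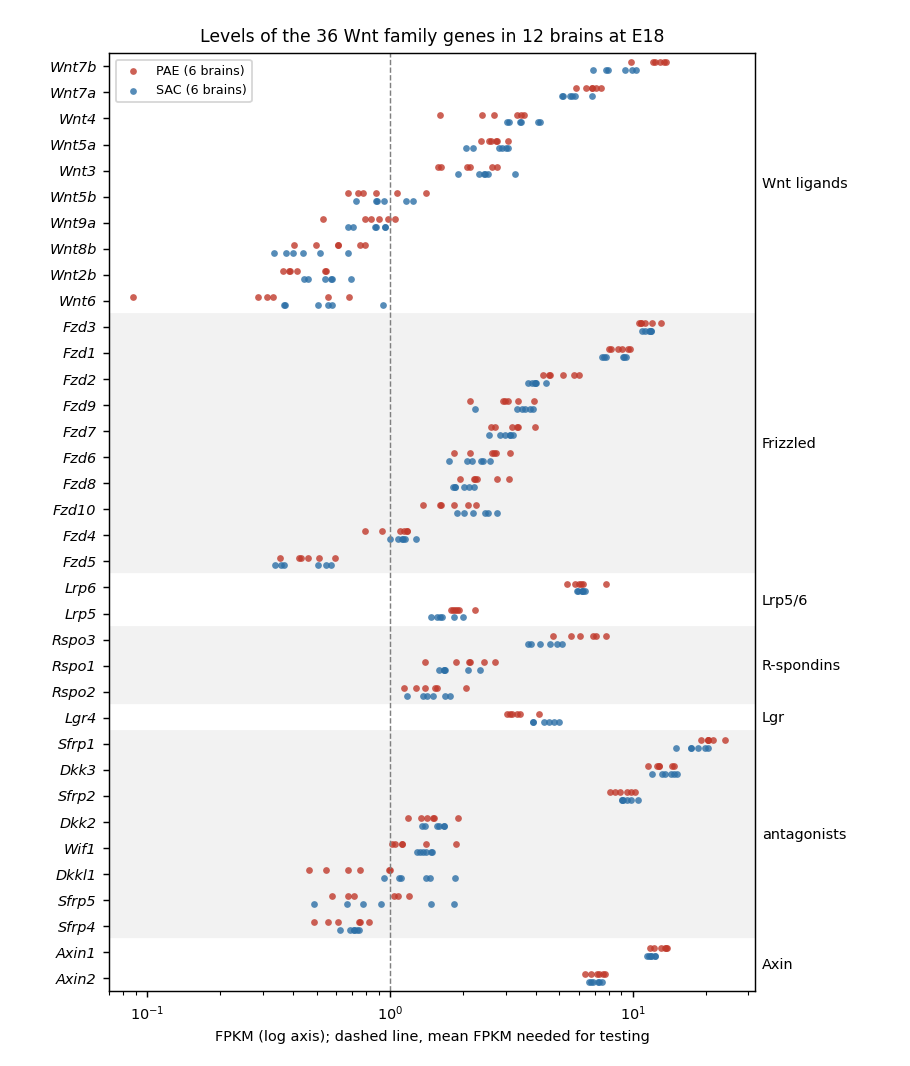
FPKM on a log axis of the 36 family genes in 6 PAE (red) and 6 SAC (blue) brains, each point 1 brain, grouped by role. Sfrp1 lies highest at a mean of 19.5 FPKM and Fzd5 lowest at 0.455, and the ranges of the groups overlap for every gene.

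Of the 36 genes, 28 had a mean of at least 1 FPKM and were tested on the log2(FPKM + 1) scale with limma, over all 12346 genes of the table that met that minimum. Wnt7b, Rspo3 and Fzd2 rose in PAE vs. SAC brains and Lgr4 and Dkkl1 fell. The 3 genes that rose were 10.7% of the 28, beside 4.34% of all tested genes that were higher at an adjusted p under 0.05, and the 2 that fell were 7.14%, beside 5.22% that were lower. These shares rest on 3 and 2 genes and describe no change of the family as a whole. Leaving out 1 brain at a time gave from 0 genes higher (without ES23-4 or SAC26-8) to 5 (without ES19-4), and from 0 to 3 lower. On means of each name prefix, 3 for PAE and 2 for SAC, none of the 28 passed with limma (8 had an unadjusted p under 0.05), nor did any of the 12346 genes of the table (2036 had an unadjusted p under 0.05). The median log2 difference of the 28 genes was 0.01, and that of all tested genes was also 0.01. Of the 28 genes 15 had a positive and 13 a negative difference, 10 had an unadjusted p under 0.05 (28.5% of all genes did), and none reached a 1.5-fold change on the log2(FPKM + 1) scale, which shrinks the differences of low genes. In FPKM the ratio of the PAE to the SAC mean was 0.563 for Dkkl1 and from 0.769 (Lgr4) to 1.45 (Rspo3) for the others. In none did the 6 PAE values lie wholly apart from the 6 SAC values, which occurred in 4.03% of all tested genes.

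**Figure D2:**
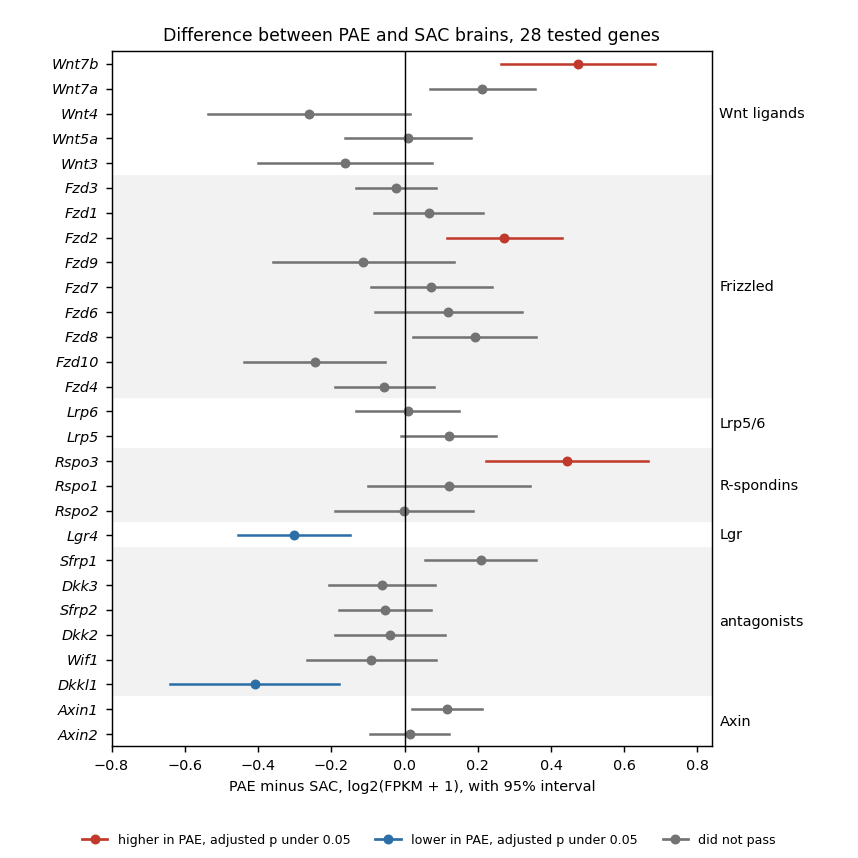
Difference between PAE and SAC, log2(FPKM + 1), with its 95% interval for the 28 tested genes, grouped by role. Wnt7b (0.47), Rspo3 (0.44) and Fzd2 (0.27) lie to the right and Lgr4 (-0.30) and Dkkl1 (-0.41) to the left, and the other 23 did not pass an adjusted p of 0.05.

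Among the ligands, Wnt7b (chr15:85535439-85581821), which acts in cortical development and signals to brain endothelium, showed the clearest difference. Its lowest, median and highest values were 9.83, 12.7 and 13.7 FPKM in PAE brains and 6.88, 8.59 and 10.4 FPKM in SAC brains. All PAE brains but ES19-4 lay above every SAC brain. The means were 12.4 ± 1.41 and 8.70 ± 1.38 FPKM (SD, n = 6 each), a log2 difference of 0.47 ± 0.0976 (SE, 95% interval 0.26 to 0.68, adjusted p = 0.0207, limma). The call was lost without ES23-4 (adjusted p = 0.0530) or SAC26-8 (adjusted p = 0.0551), and AU022754 is annotated on the opposite strand of the locus, where reads may not be separable.

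The other ligands did not pass. Wnt7a, the closest relative of Wnt7b, had 5.85, 6.81 and 7.41 FPKM (lowest, median and highest) in PAE brains and 5.14, 5.59 and 6.81 in SAC brains. The ranges overlapped through SAC12-6 alone, the highest SAC brain, which lay above the PAE brains ES27-1, ES19-4 and ES27-4. The log2 difference of Wnt7a was 0.21 (95% interval 0.07 to 0.36, adjusted p = 0.0590). Without SAC12-6 it passed (adjusted p = 0.0290), as it did without ES19-4 (0.0454) or ES27-1 (0.0492).
Wnt4, best known from kidney and gonad development, had 1.61, 3.02 and 3.57 FPKM in PAE brains and 3.05, 3.46 and 4.15 in SAC brains. ES27-4 was the lowest of all 12 at 1.61, and the log2 difference was -0.26 (95% interval -0.54 to 0.02, adjusted p = 0.199). The same brain had the lowest Wnt6 value, 0.0877 FPKM, and the lowest summed level of the 9 meningeal markers, 23.0 FPKM against 48.0 to 72.4 in the other 11. With the meningeal level as a covariate the Wnt4 difference was -0.18 (adjusted p = 0.334), and the part of the meninges in Wnt6, which was too low to test, was not tested. Wnt5a, a ligand of the planar polarity branch, differed by 0.01 (95% interval -0.16 to 0.18, adjusted p = 0.953), and Wnt3 by -0.16 (adjusted p = 0.352). Wnt5b, Wnt9a, Wnt8b, Wnt2b and Wnt6 had means under 1 FPKM and were not tested.

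Fzd2 was the Frizzled receptor that rose. At chr11:102604396-102608058 it had 4.29, 4.88 and 6.04 FPKM (lowest, median and highest) in PAE brains against 3.69, 3.96 and 4.41 in SAC brains. The groups overlapped through ES27-4, the lowest PAE brain, and SAC12-6, the highest SAC brain. The means were 5.05 ± 0.712 and 3.98 ± 0.238 FPKM (SD, n = 6 each), a log2 difference of 0.27 ± 0.0729 (SE, 95% interval 0.12 to 0.43, adjusted p = 0.0369, limma). The call did not survive leaving out any of 8 brains (ES23-4, ES23-7, ES27-1, SAC12-5, SAC12-7, SAC26-5, SAC26-7 or SAC26-8), with adjusted p between 0.0526 and 0.0879, nor the choroid plexus level as a covariate (0.0519), a test without moderation (0.0582) or sums over transcripts (0.0637).
The other 8 tested Frizzled genes did not pass. Fzd3, a receptor for axon guidance and the most abundant, differed by -0.02 (95% interval -0.13 to 0.09, adjusted p = 0.802), with 10.6, 11.0 and 13.1 FPKM in PAE and 11.0, 11.7 and 11.95 in SAC brains. Fzd10 had 1.36, 1.73 and 2.26 FPKM in PAE and 1.88, 2.34 and 2.76 in SAC brains, a log2 difference of -0.25 (adjusted p = 0.0944). Fzd8 had 1.94, 2.27 and 3.08 FPKM in PAE and 1.82, 1.94 and 2.22 in SAC brains, a log2 difference of 0.19 (adjusted p = 0.127). Both overlapped between the groups. Fzd4, the receptor of Norrin in vessels, Fzd1, Fzd6, Fzd7 and Fzd9 had log2 differences from -0.11 (Fzd9) to 0.12 (Fzd6) with adjusted p from 0.424 (Fzd6) to 0.598 (Fzd4), and Fzd5 was under 1 FPKM.

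The Lrp co-receptors differed little. Lrp6 had 5.36, 6.07 and 7.78 FPKM in PAE brains and 5.91, 6.17 and 6.36 in SAC brains, a log2 difference of 0.01 (95% interval -0.13 to 0.15, adjusted p = 0.949). Lrp5 had 1.79, 1.88 and 2.24 FPKM against 1.48, 1.63 and 1.99, a log2 difference of 0.12 (95% interval -0.01 to 0.25, adjusted p = 0.206). ES23-7 was the highest of the 12 brains for both.

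Rspo3 and its receptor gene Lgr4 moved in opposite directions. Rspo3 (chr10:29452416-29535867), an R-spondin that strengthens Wnt signalling, had 4.71, 6.45 and 7.79 FPKM (lowest, median and highest) in PAE brains and 3.72, 4.37 and 5.14 FPKM in SAC brains. The PAE brains again lay above every SAC brain but for ES19-4, which fell within the SAC range. The means were 6.35 ± 1.11 and 4.38 ± 0.576 FPKM (SD, n = 6 each), a log2 difference of 0.44 ± 0.103 (SE, 95% interval 0.22 to 0.66, adjusted p = 0.0256, limma). The call was lost without ES23-4, SAC12-5, SAC12-7, SAC26-7 or SAC26-8 (adjusted p between 0.0511 and 0.0677). Gm48159 lies on the opposite strand. Rspo1 (log2 difference 0.12, adjusted p = 0.466) and Rspo2 (0.00, 95% interval -0.19 to 0.19, adjusted p = 0.996) did not pass.

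Lgr4 (chr2:109917647-110014257), the only Lgr gene of the table, had 3.04, 3.27 and 4.14 FPKM in PAE brains and 3.89, 4.43 and 4.98 FPKM in SAC brains. Only ES19-4 among the PAE brains reached the SAC range. The means were 3.38 ± 0.395 and 4.40 ± 0.448 FPKM (SD, n = 6 each), a log2 difference of -0.30 ± 0.0708 (SE, 95% interval -0.45 to -0.15, adjusted p = 0.0266, limma). The call was lost without ES23-4, ES27-4, SAC12-5, SAC12-7, SAC26-7 or SAC26-8 (adjusted p between 0.0510 and 0.0691). With the choroid plexus level as a covariate it was also lost (adjusted p = 0.0518).

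Among the genes grouped by name as antagonists, Dkkl1, a relative of the Dkk proteins best known from testis, fell. At chr7:45207519-45212147 it had 0.465, 0.715 and 1.00 FPKM (lowest, median and highest) in PAE brains and 0.948, 1.26 and 1.86 FPKM in SAC brains. The groups met only at about 1 FPKM, in ES19-4, ES19-8 and SAC26-5. The means were 0.740 ± 0.225 and 1.31 ± 0.333 FPKM (SD, n = 6 each), a log2 difference of -0.41 ± 0.107 (SE, 95% interval -0.64 to -0.18, adjusted p = 0.0353, limma). With a pseudocount of 0.1 in place of 1 the log2 difference was -0.76 ± 0.202 (SE, adjusted p = 0.0367), since the level of the gene is close to the added 1. The mean over all brains, 1.03 FPKM, was near the minimum for testing, and without SAC12-5, SAC26-7 or SAC26-8 the gene was no longer tested. Without ES23-4, ES23-7, ES27-1, ES27-4 or SAC12-7 the adjusted p was between 0.0519 and 0.0777, and it was 0.0841 after quantile normalization, 0.0605 without moderation and 0.0616 with the choroid plexus covariate.
Sfrp1, the most abundant gene of the family and an antagonist made by cortical progenitors, had 19.2, 20.5 and 24.0 FPKM in PAE brains and 15.02, 17.98 and 20.4 in SAC brains. The ranges overlapped, and the log2 difference of 0.21 (95% interval 0.06 to 0.36) did not pass (adjusted p = 0.0757), although it did without SAC26-5 (0.0495). Sfrp2, Dkk2, Dkk3 and Wif1 had log2 differences between -0.09 (Wif1) and -0.04 (Dkk2) with adjusted p from 0.499 (Wif1) to 0.745 (Dkk2). Sfrp4 and Sfrp5 had means under 1 FPKM.

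**Figure D3:**
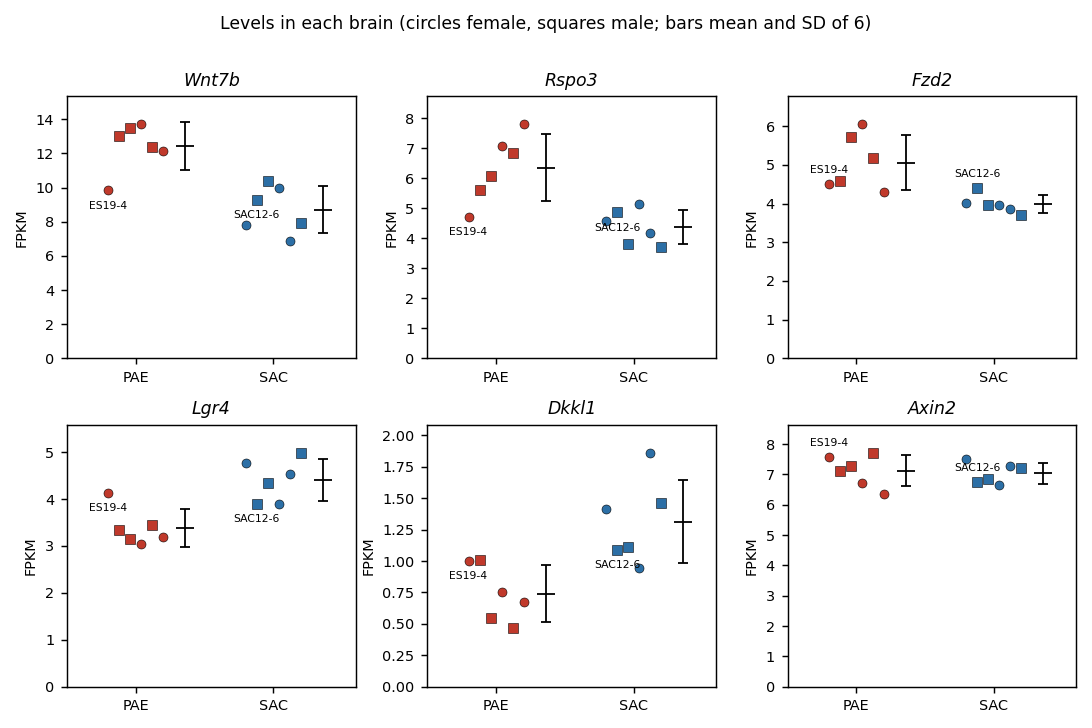
FPKM in each of 12 brains of the 5 genes that passed the test and of Axin2, each axis starting at 0, circles females, squares males, bars the mean and SD of 6 brains. ES19-4 is the lowest PAE brain for Wnt7b (9.83) and Rspo3 (4.71) and the highest for Lgr4 (4.14), whereas Axin2 had means of 7.12 and 7.04 FPKM in PAE and SAC.

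Axin2, the feedback inhibitor whose transcript is widely used to read canonical Wnt signalling, had 6.35, 7.19 and 7.71 FPKM in PAE brains and 6.64, 7.03 and 7.50 in SAC brains. The log2 difference was 0.01 with a 95% interval of -0.09 to 0.12 (adjusted p = 0.884), and Gm11670 lies on the opposite strand. Axin1, the constitutive scaffold, had 11.8, 13.3 and 13.9 FPKM in PAE brains and 11.5, 11.9 and 12.4 in SAC brains. Of the PAE brains ES19-4 and ES19-8 lay within the SAC range and the other 4 above it. Its log2 difference was 0.12 (adjusted p = 0.110), and it passed without ES19-4 (0.0314), as did Fzd10 (0.0359).

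Other pathway genes were read from a list of 75, of which 72 were in the table and 66 were tested. Of these 4 rose (6.06%, beside 4.34% of all tested genes), 1 fell (1.52%, beside 5.22%) and 61 did not pass, with a median log2 difference of -0.02. The share that rose was near that of all genes and the share that fell was below it. Id2, a helix-loop-helix factor listed among Wnt targets, was at 89.4 ± 7.65 FPKM in PAE and 64.9 ± 8.53 in SAC brains (SD, n = 6 each, log2 difference 0.46, adjusted p = 0.0188). Csnk1e, the casein kinase that acts on Dishevelled, differed by 0.18 (adjusted p = 0.0203), the scaffold Dact1 by 0.17 (adjusted p = 0.0459) and the TCF co-repressor Tle3 by 0.21 (adjusted p = 0.0460). Tnks, the tankyrase that marks Axin for degradation, fell by 0.15 (adjusted p = 0.0375). Id2 and Csnk1e lay above and Tnks below the other group in every brain, a separation that 4.03% of all tested genes showed in either direction. The TCF/LEF factors did not pass: the differences were 0.27 for Tcf7 (adjusted p = 0.0752), -0.33 for Tcf7l2 (0.173), -0.18 for Lef1 (0.195) and -0.13 for Tcf7l1 (0.202). Of the listed targets, 10 were tested and Id2 alone passed. Id2 passed without each of the 12 brains in turn, and Csnk1e without each but SAC26-8. Tnks passed without 5 of the 12 brains, and Dact1 and Tle3 without 2 each. Dact1 and Tle3 did not pass with sex as a covariate or with the name prefix as a random block. Over the list, the number that rose ran from 1 (without SAC26-8) to 8 (without ES19-4) and the number that fell from 0 to 2. Over all tested genes, 131 passed without SAC26-8 and 2379 without ES19-4, in either direction.

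In a fit of the 4 groups of sex and treatment, no gene of the family passed an adjusted p of 0.05 in males (limma), where 0.0324% of all tested genes passed. In males 8 of the family had an unadjusted p under 0.05, as did 2381 of all 12346 genes. None passed in females, where 0% of all genes did, and 6 had an unadjusted p under 0.05, as did 1763 of all genes. None passed for the interaction of sex and treatment, where 0.0081% of all genes did, and 1 had an unadjusted p under 0.05, as did 488 of all genes. Each of the 5 genes above differed in the same direction in both sexes, for instance Wnt7b by 0.46 in males and 0.49 in females and Lgr4 by -0.32 and -0.28. The interaction for Wnt7b was -0.03 (95% interval -0.45 to 0.40), so differences between the sexes of up to about the size of the effect were not detectable with 3 brains per group. The smallest interaction p belonged to Sfrp1, which differed by 0.35 in males and by 0.06 in females (unadjusted p = 0.0395). Without ES19-4, a female, 2 of the genes passed in females, and the share of all genes in that fit is not given here. In the comparison over both sexes without that brain, 2379 of 12341 genes of the table passed.

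Markers of some brain regions differed between the groups beside these genes, and those of others did not. The summed level of 9 genes of cortical neurons and dorsal telencephalon ran from 413 to 578 FPKM in PAE and from 254 to 426 in SAC brains. Of the 9, 6 rose, beside 4.34% of all tested genes that were higher. Neurod6 made the largest part of the sum, with means of 235 FPKM in PAE and 149 in SAC brains. The summed level of 15 Hox genes, which mark hindbrain and spinal cord, was 64.8 FPKM in ES19-4 and at most 0.178 in the other 5 PAE brains, and it was 0.464 in SAC12-6 and 25.7 to 72.2 in the other 5 SAC brains, with none of the 10 tested passing. Of 7 thalamic genes 3 fell (84.3 to 130 FPKM summed in PAE, 128 to 155 in SAC), of 9 cerebellar genes, 8 of them tested, 3 fell (54.3 to 83.4 against 71.0 to 108), and of 7 astrocyte genes 4 fell (206 to 392.5 against 358 to 459). Of all tested genes 5.22% were lower. Zic1 made the largest part of the cerebellar sum, with means of 42.4 FPKM in PAE and 51.5 in SAC brains, and did not pass (adjusted p = 0.211, limma). Pituitary markers summed to 48.6 FPKM in SAC12-5 and 85.9 in SAC26-7, to 10.9 in the PAE brain ES19-8, and to at most 2.06 in the others.

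The values of Wnt7b, Rspo3 and Lgr4 in single brains are set beside the cortical sum here. ES19-4 had the lowest cortical sum of the PAE brains, 413 FPKM, and its Wnt7b, Rspo3 and Lgr4 values (9.83, 4.71 and 4.14) were close to those of SAC26-5 (9.97, 5.14 and 3.89), the SAC brain with the highest cortical sum, 426 FPKM. The 3 SAC brains with the lowest sums (SAC12-5, SAC26-7 and SAC26-8, 254 to 285 FPKM) had Wnt7b at 6.88 to 7.90 FPKM, Rspo3 at 3.72 to 4.57 and Lgr4 at 4.53 to 4.98. For Rspo3 the order was looser, since SAC12-7 had 3.81 FPKM at a cortical sum of 353, and ES27-1 (492) had 6.84 where ES23-4 (565) had 6.07. With the mean log2 level of the cortical markers as a covariate, the differences were 0.11 ± 0.110 for Wnt7b, 0.13 ± 0.139 for Rspo3, 0.12 ± 0.115 for Fzd2, -0.03 ± 0.0784 for Lgr4 and -0.08 ± 0.144 for Dkkl1 (SE). In that fit none of the 28 genes had an unadjusted p under 0.05 and all had an adjusted p of at least 0.998, and none of 12346 genes passed (482 had an unadjusted p under 0.05, limma). Cortical level and treatment were themselves related, so the 2 cannot be told apart in these 12 brains.
With the Hox level as a covariate the differences were 0.33 for Wnt7b, 0.28 for Rspo3, 0.20 for Fzd2, -0.17 for Lgr4 and -0.29 for Dkkl1, with adjusted p from 0.251 to 0.357, and no gene of the table passed (1536 had an unadjusted p under 0.05). Without ES19-4 and SAC12-6 together, all 5 genes passed, with differences of 0.55, 0.54, 0.32, -0.38 and -0.48 in the same order. In that setting 2117 of 12348 genes of the table passed, against 1180 of 12346 with all 12 brains. Without ES19-4 alone the 5 other PAE brains lay wholly above SAC for Wnt7b and Rspo3 and wholly below for Lgr4, which 12.4% of all tested genes did in either direction. The 2 brains with the highest pituitary sums, SAC12-5 and SAC26-7, were left out in another setting, which kept ES19-8. None of the 27 family genes tested there passed (7 had an unadjusted p under 0.05, limma), nor did any of 12324 genes of the table (2600 had an unadjusted p under 0.05). Dkkl1 was not tested in that setting. The difference was 0.37 for Wnt7b (adjusted p = 0.105) and -0.27 for Lgr4 (0.126).

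**Figure D4:**
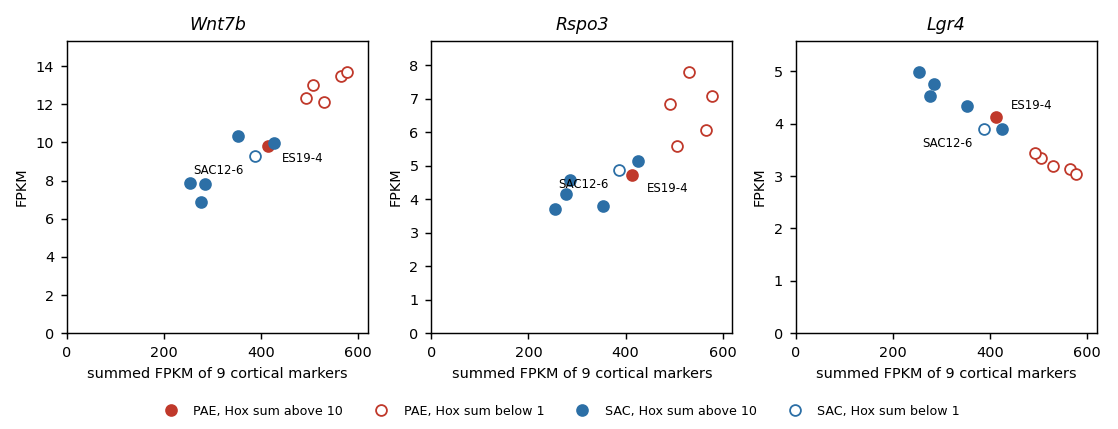
FPKM of Wnt7b, Rspo3 and Lgr4 against the summed FPKM of 9 cortical markers, each point 1 brain, PAE red and SAC blue, filled where the Hox sum was above 10 FPKM and open where it was below 1. ES19-4, at a cortical sum of 413 FPKM, lies beside the SAC brains in all 3 panels.

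The transcript table held 48 transcripts of 35 of the genes, of which 32 were tested. No transcript of any gene passed (0% of 20937, limma), and 10 of the 32 had an unadjusted p under 0.05, as did 15.1% of all. Gene values are not sums of the transcript values in these tables. For Wnt7b the transcript with the most upstream start, Wnt7b-201, was at 11.1 ± 1.83 FPKM in PAE and 6.59 ± 1.24 in SAC brains (SD, n = 6 each), a log2 difference of 0.68 ± 0.128 (SE, unadjusted p = 0.000211, adjusted p = 0.0844, limma). Wnt7b-202, which starts further downstream, was at 4.52 ± 0.692 and 4.39 ± 1.03 FPKM, and the difference between the transcripts was not tested. Lgr4-201 had 2.59 to 3.95 FPKM in PAE brains and 4.32 to 5.52 in SAC brains (log2 difference -0.41, adjusted p = 0.0892, limma). The share of all transcripts whose groups lay apart in this way is not given here, so the separation is not read as a result. As a gene, Lgr4 overlapped between the groups through ES19-4. ES19-4, the highest PAE brain for Lgr4 as a gene, was the lowest of all 12 for Lgr4-201 at 2.59 FPKM. It had 2.25 FPKM assigned to Lgr4-202, the transcript without the exon printed above, which was listed at 0 in the other 5 PAE brains and at no more than 0.429 in SAC brains. The transcripts of Rspo2 differed in opposite directions without passing. Rspo2-201 was at 1.48 ± 0.671 FPKM in PAE and 0.594 ± 0.913 in SAC brains (SD, n = 6 each, log2 difference 0.74, unadjusted p = 0.0410, adjusted p = 0.307, limma), and Rspo2-203 at 0.605 ± 0.626 and 1.52 ± 0.640 FPKM (-0.68, unadjusted p = 0.0212, adjusted p = 0.235). Both overlapped between the groups, Rspo2-201 ran from 0 to 2.42 FPKM over all brains, and Rspo2 as a gene stayed between 1.14 and 2.06 FPKM.

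**Figure D5:**
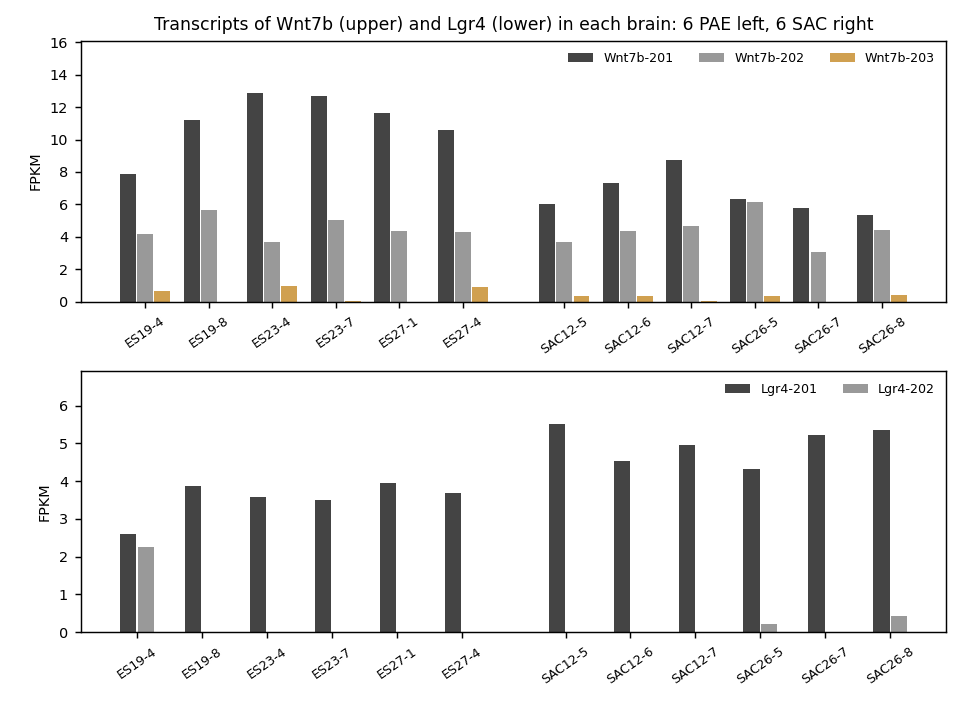
FPKM of the transcripts of Wnt7b (upper) and Lgr4 (lower) in each of 12 brains, bars from 0, PAE left and SAC right. Wnt7b-201 had means of 11.1 and 6.59 FPKM in PAE and SAC while Wnt7b-202 had 4.52 and 4.39, and Lgr4-202 reached 2.25 FPKM only in ES19-4.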

How the data were processed

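Total RNA of 12 whole brains had been made into stranded, poly-A selected libraries and sequenced as paired ends. Per the methods and the submitters' processing notes, the authors used FastQC and cutadapt on the reads, HISAT2 for alignment, and StringTie with Ballgown to estimate FPKM for genes and transcripts. The deposited FPKM are scaled by length and depth. The sources used here give no version of these tools, no read counts and no word on whether counting used strand. On the log2(FPKM + 1) scale, the 12346 genes whose 12-library mean reached 1 FPKM entered limma 3.58.1 (R 4.3.3; empirical Bayes with a trend, Benjamini-Hochberg adjustment over all of them). PAE and SAC were compared without a covariate, and the sexes in 1 fit of 4 groups. Groups came from the labels. The test was also run on simulated data in which genes and brains varied independently. That run held no effect of name prefix or brain region, so it does not bear on how the calls depend on these. The genes of the family, the pathway and marker lists and the tests were chosen with earlier results of these data known. Values in every group are given for genes at an adjusted p under 0.05, for those next in p up to 12 and for the highest of each role. Positions are those of the gene table, and 33 of the 36 loci match GENCODE M21 (GRCm38). Alternatives were pseudocount 0.1, no filter, other scaling, sex, Hox, choroid plexus or meningeal level as covariate, the name prefix as a random block or as means, no moderation, quality weights, sums over transcripts and leaving out each brain. The cortical covariate, the 2 settings that leave out pairs of brains and the test of single transcripts were added after seeing the data.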

Additional observations from a re-analysis of the deposited data

Results flagged for a closer look

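In 5 of the 72 sets of 6 values (36 genes in 2 groups), 1 brain stood apart from the other 5 by Dixon's test, and chance alone flags about 1 in 20 sets. ES23-7 was high among PAE brains for both co-receptors, with Lrp5 at 2.24 FPKM against 1.79 to 1.92 in the others and Lrp6 at 7.78 FPKM against 5.36 to 6.23. ES19-4 was high among PAE brains for Lgr4, at 4.14 FPKM against 3.04 to 3.44. SAC12-6 was low among SAC brains for Fzd9, at 2.25 FPKM against 3.35 to 3.90. SAC12-5 was high among SAC brains for Wnt6, at 0.936 FPKM against 0.366 to 0.579. ES19-4 and SAC12-6 were also the brains whose Hox level was unlike that of the rest of their group, and SAC12-5 was 1 of the 2 with the highest pituitary sums. The part of these in the values was not tested.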

How the results depend on the processing

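The 5 calls (3 higher, 2 lower) rest on small margins. Means of each name prefix, the Hox covariate, the cortical covariate and leaving out SAC12-5 and SAC26-7 each gave 0 higher and 0 lower genes of the family, and 0 higher and 0 lower of the other pathway genes. Dkkl1 was not tested in the last of these settings. The number of family genes lower was 1 after quantile normalization and without moderation, and 0 with the choroid plexus covariate, which also gave 2 higher and 0 lower pathway genes. Pathway genes higher numbered 2 with sex as covariate, with the prefix as random block (correlation 0.0464), without moderation and with sums over transcripts, and 7 without ES19-4 and SAC12-6, where 3 were lower. Pathway genes lower numbered 2 after median-of-ratios scaling and with quality weights. Leaving out 1 brain at a time gave 0 to 5 family genes higher, 0 to 3 lower, 1 to 8 pathway genes higher, 0 to 2 lower and 0 to 2 family genes in females. Over all tested genes it gave from 131 (without SAC26-8) to 2379 (without ES19-4) in either direction. Genes that had not passed changed sign. With the cortical covariate the log2 difference was 0.064 for Fzd10, 0.060 for Wnt4, -0.071 for Lrp5, -0.12 for Lrp6, 0.13 for Wnt3, -0.04 for Fzd7 and 0.13 for Fzd9, which was at 0.04 with the Hox covariate. After quantile normalization it was 0.01 for Dkk2, 0.02 for Fzd4 and 0.06 for Rspo2, which was also positive with the choroid plexus (0.01) and meningeal (0.05) covariates. Without ES19-4 and SAC12-6 it was -0.01 for Axin2, -0.03 for Wnt5a and 0.01 for Rspo2, and with sums over transcripts -0.05 for Axin2. For Lrp6 it was also -0.063 with the Hox covariate, -0.0063 with sums over transcripts, -0.011 with quality weights, and -0.050 to 0.044 when 1 brain was left out, and for Fzd3 it was 0.0053 with the choroid plexus covariate. All 5 calls kept their direction under every alternative that tested them. The cause was not tested. No paired analysis was possible because the labels number no replicates across the groups. FPKM carry no counts, so what depth limits is unknown.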
